A study of Mus musculus with 3 samples.

Results

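The genes described here are the 6 mouse genes Gal3st1, Gal3st2, Gal3st3, Gal3st4, Ugt8a and Arsa, chosen by name as the enzymes that make or break down sulfated galactolipids and their close relatives. They are 6 of the 22359 protein-coding genes of the GENCODE annotation on mm9, and all 6 were found in it. For each gene, CTCFL peaks were recorded whose center, the midpoint of the interval, lay from -2 kb to +1 kb of a transcription start site (TSS), inside the gene body, or within 100 kb of a TSS.

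Sulfoglycolipids are membrane lipids that carry a sulfate on galactose. Sulfatide, which is built on ceramide, is abundant in myelin and kidney, and seminolipid, which is built on an ether-linked glycerolipid, is the main glycolipid of male germ cells. UGT8A adds the galactose, GAL3ST1 adds the sulfate to it, and ARSA, the arylsulfatase A of lysosomes, removes the sulfate again. GAL3ST2, GAL3ST3 and GAL3ST4 are related sulfotransferases that act on galactose in the sugar chains of glycoproteins. Male mice without Gal3st1 or Ugt8a lack seminolipid and are infertile.

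CTCFL (also called BORIS) is a paralog of the chromatin protein CTCF, with similar zinc fingers, and is made in male germ cells. Its sites were mapped by ChIP-sequencing with the V5 antibody in mouse embryonic stem (ES) cells that carry a Tet-on CTCFL-V5-GFP transgene and were grown with LIF on gelatin, so all peaks come from a tagged, induced protein in cells that are not germ cells. The induced cells received doxycycline for 3 days and were sorted for GFP, whereas the non-induced cells, precipitated with the same antibody, were not sorted. A further library was made with a CTCF antibody, and each condition had 1 library. The values below come from the deposited list of 7436 CTCFL peaks of the induced cells. This list is longer than the set of CTCFL sites described by the study, and how the set was drawn from it is not given in the sources used here, so shares and ranks hold for the list. The non-induced and CTCF libraries were not analysed here, so the peaks were not split into sites of CTCFL alone and sites shared with CTCF. The list gives a start and an end for each peak and no height, read number or expression value. The depth behind a peak is therefore unknown, and neither the spread between replicates nor the labelled cell type could be checked.

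None of the 6 genes had a CTCFL peak in the promoter interval of an annotated TSS, whereas Gal3st1 and Gal3st3 had peaks inside the gene and Ugt8a had none within 100 kb. Over all protein-coding genes, 11.2% had a peak center in the promoter interval (2511 of 22359). A peak center in the gene body was found for 2 of the 6 genes and for 15.0% of all protein-coding genes (3345 of 22359). Within 100 kb of a TSS, 5 of the 6 genes had a peak, against 60.3% of all protein-coding genes (13489 of 22359). With 6 genes, these counts describe the genes and are not estimates of a rate. The center nearest to the promoter interval lay outside it by 812 bp, upstream of Gal3st3, and the next by 1530 bp, inside Gal3st1. At the 100 kb limit, the farthest center counted lay 79424.5 bp from Arsa, and the closest one left out lay 100359.5 bp from the same gene.

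**Figure D1:**
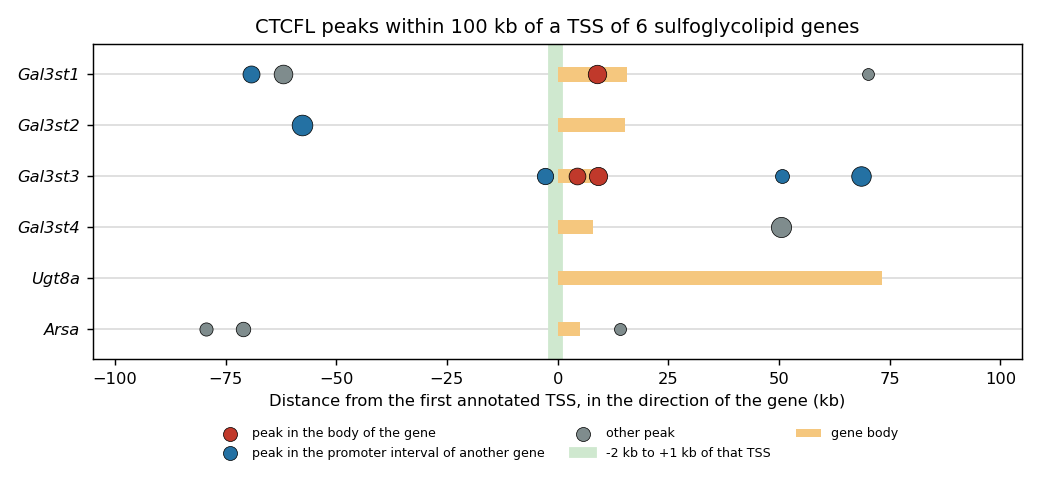
The x axis gives the distance in kb from the first annotated TSS of each gene, in the direction of the gene, and each row is 1 of the 6 genes with its body as a bar. Each circle is a CTCFL peak, with an area in proportion to its width in bp. Red circles, inside the gene, occur for Gal3st1 (1 peak) and Gal3st3 (2 peaks), and the row of Ugt8a is empty. No circle lies in the green band, which marks the promoter interval of the first TSS only and not those of other starts.

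Around the 6 genes there were 14 peaks within 100 kb, and they fell into 3 kinds of place. Of the 14, 3 lay in the body of Gal3st1 or Gal3st3, 5 lay in the promoter interval of another gene, and 6 lay in neither. Only the 3 peaks in gene bodies had a TSS of one of the listed genes as their nearest TSS. The narrowest of the 14 measured 259 bp, the widest 787 bp and the median 525 bp, against a median of 454 bp over all 7436 peaks, and 9 were at or above that overall median. In all 14, every window of 36 bases, the length of the reads, was unique in the genome.

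Gal3st1 (ENSMUSG00000049721.8), the cerebroside sulfotransferase that makes both sulfatide and seminolipid, lies on the plus strand of chromosome 11 from 3883639 to 3899329 (15691 bp). The annotation gives it 3 protein-coding transcripts with starts at 3883639, 3883716 and 3889936. A CTCFL peak of 629 bp lay inside the gene, from 3892152 to 3892780. It ranked 1175 in width among the 7436 peaks, and 16.0% of peaks were at least as wide. Its center was 2530 bp downstream of the most downstream TSS, and 8827 and 8750 bp downstream of the other starts. The peak was intronic in every transcript, in intron 1 of both transcripts with 3 exons and in intron 2 of the transcript with 4 exons. No base of it was exonic in these annotated transcripts. Its center lay 4458 bp upstream of the coding start at 3896924, which all 3 transcripts share. Its GC content was 53.4%, against a median of 52.6% over all peaks. It held 18 CpG dinucleotides, against a median of 10, with a CpG observed-to-expected ratio of 0.40, against 0.34.

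The central bases of this peak are shown because they hold its motif match and the ends of the study's own PCR primers. They are given 5′ to 3′ on the plus strand of mm9 (chr11:3892339-3892632), with the best motif match, at chr11:3892479-3892492 on the minus strand, in capitals.
Gal3st1 intron peak: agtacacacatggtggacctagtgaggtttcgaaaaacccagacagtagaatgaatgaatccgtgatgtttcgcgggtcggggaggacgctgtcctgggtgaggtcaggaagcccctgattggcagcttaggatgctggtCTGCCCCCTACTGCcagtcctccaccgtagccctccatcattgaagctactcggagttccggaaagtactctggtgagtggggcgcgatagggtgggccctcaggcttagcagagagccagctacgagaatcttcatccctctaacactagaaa

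The study's methods list a primer pair for ChIP at Gal3st1 and a primer pair for a testis-specific form of its RNA. Both ChIP primers and the forward primer of the testis-specific form match bases within the sequence above, the ChIP primers on either side of the capitals and the RNA primer downstream of them. The backward primer of the testis-specific form matches the exon that holds the coding start. A transcript that contains bases of the peak is not among the annotated ones used here. The absence of a promoter peak at Gal3st1 therefore holds for the 3 annotated starts, and the intronic place of its peak holds for the annotated transcripts. The study itself refers to the Gal3st1 promoter when it compares binding of CTCFL and CTCF. The distance to a start used in testis was not measured.

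The other 3 peaks within 100 kb of Gal3st1 lay far from it and nearer to other genes. The first, of 531 bp (chromosome 11, 3814062 to 3814592), had its center 69312 bp upstream of the nearest Gal3st1 TSS, in exon 1 and the promoter interval of Slc35e4. The second, of 642 bp (3821363 to 3822004), was centered 61955.5 bp upstream in intron 8 of Tcn2, which encodes the vitamin B12 carrier transcobalamin. The last, of 259 bp (3953651 to 3953909), was centered 63844 bp downstream between genes, 11064 bp upstream of the nearest TSS, that of Sec14l3. No other peak was listed for 61635 bp upstream of the gene or for 54322 bp downstream of it. Having 4 peaks within 100 kb, Gal3st1 was among the 11.2% of protein-coding genes with as many or more. The 967 genes with the same number of other gene starts in that window, 8, had a median of 2 peaks.

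Gal3st3 (ENSMUSG00000047658.6), a galactose-3-O-sulfotransferase of glycoprotein sugar chains, lies on the plus strand of chromosome 19 from 5298331 to 5308738 (10408 bp) and has 1 annotated transcript with 3 exons. It had 2 peaks in its body and a further peak just upstream, and 2.2% of protein-coding genes had 2 or more body peaks. Both peaks of the body had their center in an exon, but exonic bases made up only 45.5% of the peak over exon 2. The Gal3st1 peak was intronic in the annotated transcripts of that gene. The peak over exon 2, from 5302352 to 5302870, was 519 bp wide and ranked 2564 in width. Its center was 4280 bp downstream of the TSS and 64 bp downstream of the coding start at 5302547, so it spanned the whole exon of 236 bp, of which 125 bp are coding. The peak over exon 3, from 5307172 to 5307783, was 612 bp wide and ranked 1361. Its center was 9146.5 bp downstream of the TSS, and all of its 612 bases were coding sequence.

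The 2 peaks in the body of Gal3st3 differed in base composition. The exon 3 peak had 66.8% GC and 78 CpG dinucleotides, with a CpG observed-to-expected ratio of 1.14, and 8.06% of all peaks had as high a GC content. The exon 2 peak had 51.6% GC, 4 CpG dinucleotides and a ratio of 0.12. The median ratio over all peaks was 0.34.

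The peak upstream of Gal3st3, from 5295273 to 5295765, was 493 bp wide and ranked 2974. Its center was 2812 bp upstream of the Gal3st3 TSS but 64 bp upstream of the TSS of Sf3b2, a splicing factor gene on the other strand, whose promoter interval it lay in. Of the remaining 2 peaks of the window, the peak of 358 bp from 5348810 to 5349167 was centered 50657.5 bp downstream of the Gal3st3 TSS, in intron 1 and the promoter interval of Cst6. The peak of 703 bp from 5366401 to 5367103 was centered 68421 bp downstream, in the shared promoter region of Eif1ad and Banf1. All 3 peaks outside the gene body were thus promoter peaks of neighbors. With 5 peaks within 100 kb, Gal3st3 was among the 5.79% of protein-coding genes with as many or more, and it also had 8 other gene starts in that window.

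Sequence from each of the Gal3st3 peaks in or next to the gene is printed for comparison with the Gal3st1 peak, on the plus strand of mm9, with the best motif match in capitals. The regions are chr19:5295457-5295750 for the upstream peak, chr19:5302547-5302801 for the exon 2 peak, where the first bases are the start of the coding sequence, and chr19:5307363-5307656 for the exon 3 peak.
Gal3st3 upstream peak: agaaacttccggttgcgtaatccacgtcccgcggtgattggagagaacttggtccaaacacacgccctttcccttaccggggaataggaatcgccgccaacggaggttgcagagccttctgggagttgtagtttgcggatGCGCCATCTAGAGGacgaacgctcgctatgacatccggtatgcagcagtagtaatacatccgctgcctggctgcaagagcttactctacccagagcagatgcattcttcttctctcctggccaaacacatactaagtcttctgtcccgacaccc
Gal3st3 exon 2 peak: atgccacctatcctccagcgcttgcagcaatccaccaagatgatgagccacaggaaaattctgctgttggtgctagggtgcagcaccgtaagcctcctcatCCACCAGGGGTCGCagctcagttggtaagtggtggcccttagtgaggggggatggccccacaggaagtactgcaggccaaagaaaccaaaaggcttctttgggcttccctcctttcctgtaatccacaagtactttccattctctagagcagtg
Gal3st3 exon 3 peak: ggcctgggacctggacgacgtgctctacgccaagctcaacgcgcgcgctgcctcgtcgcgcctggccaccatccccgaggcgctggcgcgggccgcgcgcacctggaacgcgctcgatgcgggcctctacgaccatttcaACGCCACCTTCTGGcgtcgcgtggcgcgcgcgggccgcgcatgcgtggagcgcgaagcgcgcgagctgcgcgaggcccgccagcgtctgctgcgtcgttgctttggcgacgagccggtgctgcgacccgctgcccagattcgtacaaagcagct

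**Figure D2:**
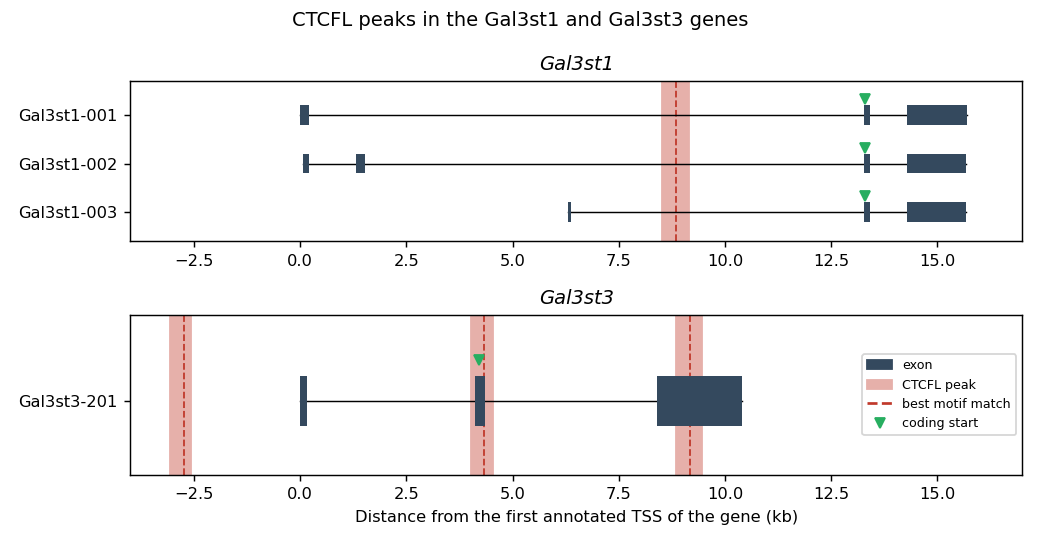
The x axis gives the distance in kb from the first annotated TSS of each gene, and each row is an annotated transcript with its exons as boxes. Pink bands are CTCFL peaks, dashed lines their best motif matches and green triangles coding starts. The peak of Gal3st1 lies between exons in all 3 transcripts, whereas 2 peaks of Gal3st3 lie over its exons 2 and 3 and the third lies upstream of the gene.

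A binding motif was derived from the 7436 peaks themselves, in order to read the listed genes' peaks against the sequence that CTCFL peaks share. The search started from the 8-base word most enriched in peak centers, GGGGGCGC on either strand, and ended at a weight matrix of 14 positions from 3702 sites, with the consensus CCANNAGGGGGCGC. In it N marks a position where no base reached 50%, which leaves 12 fixed positions. Positions are counted from 1 at the 5′ end. Position 4 was mostly C or G (47.6% and 46.3%), and the fixed position 3 was A in 53.2%. Departures are counted at the fixed positions only, whereas the score uses all 14. A window scores the sum, in bits, of the log2 ratios of base frequency in the motif to that in the surroundings, and a match is a score above 15.69, a limit set so that at most 2% of equally wide windows, taken 2 kb upstream and downstream of each peak, exceed it. A match was present in 3375 peaks, 45.4% (95% Wilson interval 44.3 to 46.5%, covering counting error only), and in 1.77% of 14871 flanking windows. It was present in 39.0% of the 2343 peaks in a promoter interval (37.1 to 41.0%). In peaks in a gene body and no promoter interval it was found in 50.8% of 2516 (48.9 to 52.8%).

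All 3 peaks in the bodies of Gal3st1 and Gal3st3 held a match, and each lay within 50 bp of the peak center. The best windows are written below on the motif strand, with bases that equal a fixed base of the consensus in capitals. They are shown because the peaks meet the same motif with different departures from it.
Consensus: CCANNAGGGGGCGC
Gal3st1 intron peak: gCAgtAGGGGGCag
Gal3st3 upstream peak: CCtctAGatGGCGC
Gal3st3 exon 2 peak: CCAccAGGGGtCGC
Gal3st3 exon 3 peak: CCAgaAGGtGGCGt

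The Gal3st1 match scored 16.05 bits, close to the limit of 15.69, and ranked 3196 among the best scores of the 7436 peaks. It departed from the consensus at both ends, by C1G, G13A and C14G, and kept the run of G between them. Its center lay 19.5 bp from the center of the peak. Up to 3 departures were found in 68.6% of all peaks (67.5 to 69.6%). At the stricter limit that 1% of flanking windows exceed, the Gal3st1 window was no longer a match, and 35.3% of all peaks had one.

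The exon 2 match of Gal3st3 had the highest score of the 3 peaks in the bodies of Gal3st1 and Gal3st3, with 18.19 bits, rank 2105 and the single departure G11T. It lay at 5302648 to 5302661 on the plus strand, inside the coding sequence and starting 101 bp downstream of its first base. At most 1 departure was found in 19.0% of all peaks (18.2 to 19.9%). The exon 3 match, at 5307503 to 5307516 on the minus strand, scored 15.94 bits with the departures G9T and C14T and was also coding. The upstream peak held 2 matches, of 16.81 and 16.17 bits, of which the first departed by A3T, G8A and G9T.

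**Figure D3:**
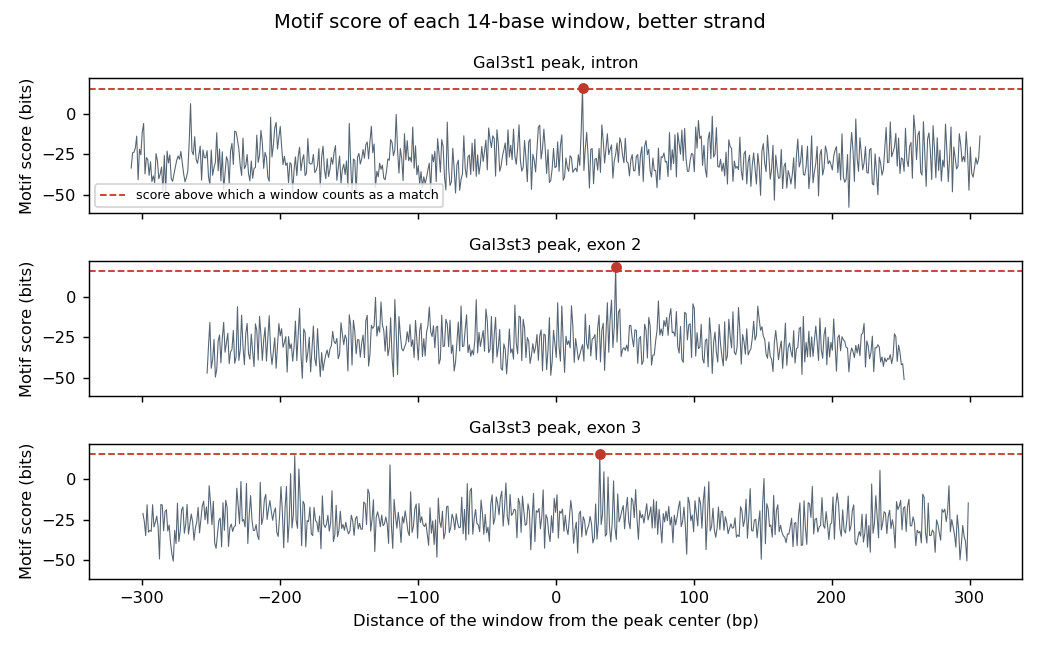
The x axis gives the distance in bp of each window of 14 bases from the center of its peak, and the y axis its motif score in bits on the better strand. The panels are the 3 peaks in the bodies of Gal3st1 and Gal3st3, and the dashed line is the score of 15.69 above which a window counted as a match. Each peak has a single window above the line, at 19.5, 43.5 and 32.0 bp from the center.

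Gal3st4 (ENSMUSG00000075593.4), a sulfotransferase of mucin-type sugar chains, had no peak in its promoter interval or body. It lies on the minus strand of chromosome 5 from 138706149 to 138714068 (7920 bp), with 5 annotated transcripts from 4 starts. Its nearest peak, of 747 bp from 138663127 to 138663873, was centered 50477 bp downstream of the nearest TSS, between genes and 3626 bp upstream of the TSS of BC055004. On the other side of the gene no peak was listed for 346714 bp. This distant peak held the highest-scoring motif match of the 14 peaks, with 20.17 bits, rank 963 and the single departure G8A, and 6.15% of peaks were at least as wide. The window of Gal3st4 contained 11 other gene starts, and the 527 genes with that number had a median of 2 peaks.
Match 50 kb downstream of Gal3st4: CCAgaAGaGGGCGC

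Gal3st2 (ENSMUSG00000034005.7), a further sulfotransferase of glycoprotein sugar chains, lies on the plus strand of chromosome 1 from 95757921 to 95773071 (15151 bp). No peak was listed in its promoter interval or body. The nearest peak, of 787 bp from 95699868 to 95700654, was centered 57660 bp upstream, in the promoter intervals of Ing5 and Dtymk. It was the widest of the 14 peaks, ranked 355 of all peaks in width, and held no match (best score 12.75 bits). Downstream of the gene no peak followed for 1575366 bp. The region could hardly be read, because only 13.7% of the 36-base windows in the gene body were unique in the genome. In the promoter interval 37.9% were unique, and in the whole 200 kb window 44.3%. For the other 5 genes at least 85.6% of the body, 94.9% of the promoter interval and 83.3% of the window were unique. For genes with several starts, the promoter value covers the whole span from the interval of the first start to that of the last. If only uniquely mapped reads were kept, a peak in Gal3st2 could not be seen over most of the gene, and the absence of a peak there is not a measured absence of binding.

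Ugt8a (ENSMUSG00000032854.8), the galactosyltransferase that makes the precursor of both sulfoglycolipids, was the farthest of the 6 genes from any CTCFL peak. It lies on the minus strand of chromosome 3 from 125568277 to 125641468 (73192 bp, 6 exons). The nearest peak, of 469 bp from 126299718 to 126300186, was centered 658484 bp upstream, at the promoter of Camk2d, and a peak as far away or farther was found for 8.02% of protein-coding genes. Downstream of the gene, the next peak was 2492938 bp away, in Mettl14. Of the 36-base windows, 85.6% in its body and 98.3% in its promoter interval were unique. No other protein-coding gene started within 100 kb of Ugt8a, and 68.4% of the 2329 genes without such a neighbor likewise had no peak within 100 kb. Among genes of similar length, the longest of 5 classes, 29.9% had a peak in the body. Its TSS was rich in CpG, with 66 CpG dinucleotides in the 250 bp to either side and an observed-to-expected ratio of 0.94. At their most upstream TSS, 89.1% of protein-coding genes had a ratio at or below that.

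Arsa (ENSMUSG00000022620.8) had no peak in its promoter interval or body but 3 within 100 kb, all inside neighboring genes. It lies on the minus strand of chromosome 15 from 89302907 to 89307856 (4950 bp). The nearest peak, of 265 bp from 89293740 to 89294004, was centered 13984 bp downstream of the main TSS, in Mapk8ip2, and 10830 bp from a start at 89304702 whose transcript the annotation marks as incomplete at its 5′ end. It was among the narrowest listed, as 93.4% of peaks were at least as wide, and held a match of 16.76 bits with the departures A6T and C14G. The other peaks lay upstream in Shank3, which encodes a scaffold protein of synapses. The peak of 388 bp from 89378697 to 89379084 was centered 71034.5 bp upstream and held no match. The peak of 320 bp from 89387121 to 89387440 was centered 79424.5 bp upstream, held a match of 16.02 bits and had the TSS of Acr, the gene of the sperm protease acrosin, as its nearest, 11476.5 bp away. With 3 peaks in the window, 20.5% of protein-coding genes had as many or more, and with 11 other gene starts in the window the median was 2.

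By place among the 14 peaks, a match was held by all 3 peaks in the gene bodies and by 5 of the 6 peaks in neither kind of place, the exception being the first Shank3 peak. Of the 5 peaks in the promoter intervals of other genes, those at Sf3b2 and Cst6 held a match and those at Slc35e4, Ing5 and Dtymk, and Eif1ad and Banf1 did not. Over all peaks the share with a match was 45.4%, with 39.0% in promoter intervals and 50.8% in gene bodies outside them. The groups among the 14 peaks are too small to be set against these shares. At the fixed positions, the best window at Slc35e4 differed from the consensus only by A3C, and it scored 13.54 bits, below the limit. It also held A at position 4 and G at position 5, bases with frequencies of 5.3% and 4.5% in the motif. The widths of these groups overlapped, from 358 to 787 bp for the peaks in promoter intervals and from 259 to 747 bp for the others.

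The number of peaks around each gene was read against all protein-coding genes. The median was 1 peak within 100 kb, with quartiles of 0 and 2 and a highest count of 14, and the median distance to the nearest peak was 60908 bp. Gal3st1 and Gal3st3, at 2530 and 2812 bp, were among the 12.7% and 13.0% of genes with a peak as near or nearer. For Gal3st3 this was the peak in the promoter interval of Sf3b2, and the nearest peak in its own body was centered 4280 bp from the TSS. Gal3st2 and Gal3st4, at 57660 and 50477 bp, were close to the median. Over the 22359 genes, the count of peaks and the count of other gene starts in the window had a Spearman's rho of 0.40. This is given as a description, because neighboring genes share windows and peaks.

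**Figure D4:**
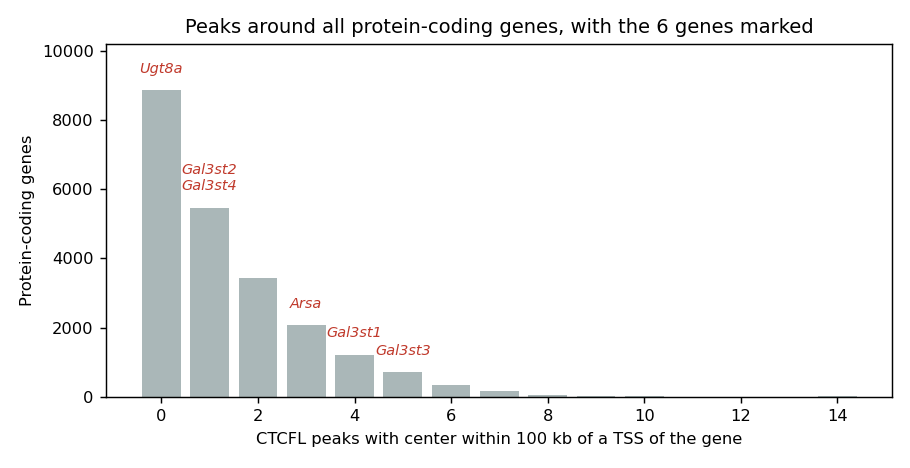
The x axis gives the number of CTCFL peaks with a center within 100 kb of a TSS of a gene, and the y axis the number of protein-coding genes with that count. The 6 genes are written above their bars. Ugt8a stands in the bar of 8870 genes without a peak, while Gal3st3, with 5 peaks, has as many or more than all but a small share of genes.

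The promoters of the listed genes differed in CpG content. CpG ratios of all genes were taken from 250 bp to either side of the most upstream TSS, whereas promoter peaks counted at any start. The median ratio was 0.78 for genes with a peak in the promoter interval and 0.54 for genes without. A promoter peak was present in 17.3% of the 11174 genes with a ratio of 0.6 or more and in 5.17% of the 11185 genes below it. Gal3st2 (0.03), Gal3st4 (0.22 to 0.35), Arsa (0.30 at its main TSS) and Gal3st3 (0.50) were below that value. Ugt8a was above it, as were both upstream starts of Gal3st1 (0.61 and 0.69). The downstream start of Gal3st1, which is the annotated start nearest to the peak, had 3 CpG dinucleotides and a ratio of 0.08. Only 7.05% of protein-coding genes did not exceed this ratio at their most upstream start.

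Among 29 related genes, which supply the lipid or the sulfate donor or take part in breakdown, 4 had a promoter peak, 4 a body peak and 17 a peak within 100 kb. The shares over all protein-coding genes were 11.2%, 15.0% and 60.3%, so the counts of the 29 genes lay near the background, and the groups by role below are too small to be set against it. The promoter peaks belonged to Cers2, Cers5 and Kdsr of the ceramide part and to Slc35b2, which carries the sulfate donor PAPS into the Golgi. The ceramide synthase genes Cers2 and Cers5 had peaks of 566 and 441 bp, centered 619.5 bp downstream and 4 bp upstream of their nearest TSS, without a motif match. The peak of Kdsr, which encodes an early reductase of ceramide synthesis, was 540 bp wide, centered 10.5 bp upstream of the TSS and held a match of 16.51 bits. The Slc35b2 peak was 568 bp wide, centered 172.5 bp upstream, without a match and with 82.4% unique windows, fewer than in any peak around the 6 genes.

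Peaks in the gene body were found for Cers2, Cers5, Sptlc3 and Agps. Cers5 had, besides its promoter peak, a peak of 1133 bp over a late exon, 36541 bp downstream of the TSS, which ranked 49 in width. In Sptlc3, a subunit of serine palmitoyltransferase, a peak of 515 bp lay in a late intron 96216 bp downstream of the nearest TSS and held a match of 22.09 bits. In Agps, which forms the ether bond of lipids such as seminolipid, a peak of 377 bp lay in intron 1, 15675 bp downstream of the TSS, without a match. By role, the 13 genes of the ceramide part held 3 with a promoter peak and 3 with a body peak. The sulfate donor part, of 4 genes, held 1 with a promoter peak, and the ether lipid part, of 4 genes, 1 with a body peak. The 6 genes of breakdown had 0 promoter and 0 body peaks and 5 had a peak within 100 kb. Ugcg and Mal, which act next to the pathway, had no peak within 100 kb.

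**Figure D5:**
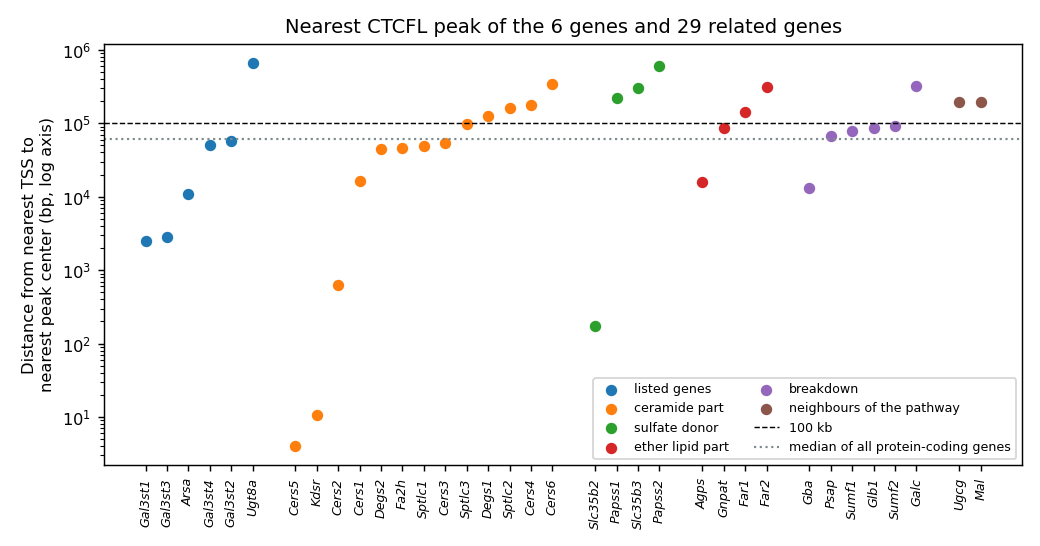
The y axis gives, on a log scale, the distance in bp from the nearest TSS of each gene to the center of its nearest CTCFL peak, and the x axis lists the 6 genes and the 29 related genes by role. The dashed line marks 100 kb and the dotted line the median of all protein-coding genes, 60908 bp. Gal3st1 and Gal3st3 lie at 2530 and 2812 bp, farther than Cers5, Kdsr, Slc35b2 and Cers2 and nearer than the other genes plotted. The Gal3st3 value is that of the peak in the promoter interval of Sf3b2.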

How the data were processed

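The deposited file, a list of peak start and end positions on mm9, was made by the authors from the V5 library of the induced cells and holds 1 library without heights, reads or p-values. The study mapped its 36-bp reads with ELAND. Its methods name BOWTIE, a filter that kept unambiguous and unique reads, and MACS for peak calling in the account of published data sets, and whether these steps also gave the list is not given in the sources used here. Under such a filter, peaks in repeated sequence would be lost.

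Starts were read as 0-based and raised by 1. TSS were those of protein-coding transcripts of the GENCODE mouse annotation for mm9. Gene promoter intervals, bodies and 100 kb windows were scanned for peak centers. Uniqueness of each 36-base window was found by an exact search of the genome on both strands. The motif started from the word of 8 bases most enriched in the central 100 bp of the peaks against windows 2 kb to either side. Its sites were then taken from the central 200 bp of the peaks, and the matrix was refined in 10 rounds. Shares have 95% Wilson intervals. No test was made, because 1 library gives no spread between replicates. RefSeq promoter sequences, from a later build, were placed on mm9 by exact match for 4 of the 6 genes. Their starts lay within 15 bp of a GENCODE start for Gal3st1, at it for Gal3st2, within 1 bp for Arsa and within 102 bp for Ugt8a. The primer positions named for Gal3st1 come from an exact match of the study's primers to the mm9 sequence.

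The 6 genes and the 29 related genes were chosen with earlier results of these data known. Genes were named if listed, if related and with a promoter or body peak, or if they hold or lie nearest to a peak of the 6 genes. Ugcg, Mal and the exact places of peaks in neighbors were added after the values were seen. Other settings are given in the closing section, of which leaving out starts of transcripts marked incomplete at the 5′ end, and measuring from the motif match, were added after seeing the data. The computations were tested on simulated data and ran under Python 3.11.15 with pandas 2.3.3 and numpy 2.4.6, pysam 0.24.0 for sequence, numba 0.67.0 for the motif and uniqueness scans, scipy 1.17.1 for intervals and matplotlib 3.10.9 for plots.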

Additional observations from a re-analysis of the deposited data

How the results depend on the processing

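No paired analysis was possible because the conditions have 1 library each, and no replicate could be left out. Of 77 alternative values of 13 counts, shares and distances, 55 stayed within limits of 1.5 times for a count or a distance and the 95% interval for a share. Moves inside these limits include 15 peaks in place of 14 near the 6 genes and 6 related genes in place of 4 with a body peak when any overlap counted. They also include 23 related genes in place of 17 within 200 kb. With a promoter interval from -5 kb to +5 kb, 2 genes (Gal3st1 and Gal3st3) had a promoter peak and 15.5% of all genes. With a 50 kb window, 3 genes and 5 peaks remained near the 6 genes, with 46.1% of all genes and 10 of the related genes. With a 200 kb window, 30 peaks were near the 6 genes and 74.1% of all genes had a peak. With 2 kb added to either side of the gene body, 20.9% of all genes and 7 related genes had a body peak. From the starts of every annotated transcript, the shares of all genes with a promoter peak and with a peak within 100 kb were 12.0% and 61.0%. Counting any overlap gave 11.7% with a promoter peak and 17.5% with a body peak. Peaks with at least 90% unique windows gave 10.8%, 14.3% and 58.4% for promoter, body and 100 kb. A promoter interval from -1 kb to +1 kb gave 10.3%. The share of peaks with a motif match was 59.3% at the limit that 5% of flanking windows exceed and 48.4% in the central 200 bp. At the limit that 1% exceed it was 35.3%, and the Gal3st1 peak then had 0 matches in place of 1.

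The list gives no depth, so a weak peak cannot be told from a strong one, and whether width follows read number was not tested. Where the list has no peak, a site under the caller's threshold, sequence without unique reads and a lack of binding cannot be told apart. Which peaks were also present without doxycycline, or shared with CTCF, was not tested here. For Gal3st1, the study reports binding of CTCFL and not of CTCF from its ChIP-sequencing data, and it also assayed the gene by direct ChIP. Its text refers to the Gal3st1 promoter there, whereas the peak described here lay outside the promoter intervals of the annotated starts.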
